A study of Caenorhabditis elegans with 2 samples.

Results

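The genes described here are the protein-coding genes of Caenorhabditis elegans whose symbols start with sec-, vps-, snx- or rab-, apart from rab-3. They were chosen by symbol in the Ensembl WBcel235 annotation, which gave 76 of 19973 protein-coding genes: 19 sec, 31 vps, 7 snx and 19 rab genes. Binding of EGL-5 near them was measured by chromatin immunoprecipitation and sequencing (ChIP-seq) in whole L3 larvae of both sexes together. The animals were strain OP54, which carries the unc-119(ed3) mutation and the integrated array wgIs54, the source of eGFP-tagged EGL-5. There was 1 group with 2 biological replicates. No untagged or input sample formed a group, and a control experiment named in the labels was not analysed here. Neither the copy number of the array nor the cells in which it is active is stated in the labels. Since whole larvae were used, strong binding in few cells and weak binding in many cannot be told apart.

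Proteins made for export enter the endoplasmic reticulum (ER) through the Sec61 channel and leave it in vesicles coated by COPII. Rab GTPases mark each membrane compartment and direct vesicles to it, and the exocyst tethers vesicles to the plasma membrane. On the inward route, sorting nexins and retromer return cargo from endosomes, the ESCRT complexes sort it into internal vesicles, and HOPS and CORVET tether endosomes and lysosomes before fusion. These genes are used in most cells. EGL-5 is a posterior Hox protein, known for specifying cell fates in the tail region.

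Of the 76 genes, 24 (31.6%, exact binomial 95% interval 21.4 to 43.3) had a peak summit in the promoter window, against 8.92% of all protein-coding genes. The promoter window runs 1000 bp upstream and 200 bp downstream of each annotated start. Peaks are those of the list the authors deposited as IDR-thresholded, where IDR is the irreproducible discovery rate, computed from peak ranks in the replicates. That list holds the 2570 highest-scoring peaks of the pooled data, and single peaks in it can differ widely in rank between the replicates. The peak at the gamma subunit gene of the Sec61 channel, sec-61.G, scored highest, and it was followed by the COPII scaffold gene sec-16A.2 and the ESCRT genes vps-32.1 and vps-60. No HOPS or CORVET gene and no retromer gene had an IDR summit in its window. The groups hold 8 and 3 genes, and the exact intervals, up to 36.9% and 70.8%, include the 8.92% of all protein-coding genes. The score is the authors' own value per peak, on a scale that the sources used here do not define, and it is used to rank peaks within a list. The genes were chosen with earlier results of these data known, so no test of the list was made.

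The sequences printed here are the summit base with 50 bases on either side at 5 of these genes, on the coding strand of each gene, from the RefSeq WBcel235 genome. They show the highest-scoring peak of the ER channel and of the COPII coat, and 3 further peaks that hold the motifs counted next. Capitals mark GAGAGA and its reverse complement TCTCTC, and CAGCTG, which is its own reverse complement. The regions are chrV:10897316-10897416 for sec-61.G, chrX:8286854-8286954 for sec-16A.2, chrV:8606487-8606587 for vps-60, chrX:15606860-15606960 for rab-14 and chrIV:11566312-11566412 for sec-24.1, on ce11. None of these windows touches an annotated exon of a protein-coding gene, and the sec-24.1 summit lies within annotated non-coding RNA genes.
sec-61.G: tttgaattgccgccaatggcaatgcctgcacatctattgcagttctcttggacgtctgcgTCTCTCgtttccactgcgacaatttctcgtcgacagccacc
sec-16A.2: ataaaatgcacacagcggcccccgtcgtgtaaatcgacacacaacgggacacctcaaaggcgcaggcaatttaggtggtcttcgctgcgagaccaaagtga
vps-60: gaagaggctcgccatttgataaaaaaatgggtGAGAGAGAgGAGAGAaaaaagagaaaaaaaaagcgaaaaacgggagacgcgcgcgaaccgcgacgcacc
rab-14: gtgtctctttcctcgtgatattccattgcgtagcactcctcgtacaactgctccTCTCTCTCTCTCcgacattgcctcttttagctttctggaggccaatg
sec-24.1: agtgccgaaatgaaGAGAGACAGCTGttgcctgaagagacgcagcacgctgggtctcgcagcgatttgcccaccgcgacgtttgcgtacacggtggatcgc

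The GAGAGA repeat, on either strand within 50 bp of the summit, was found at 6 of the 24 member summits (25%, exact interval 9.77 to 46.7). Across all 1389 IDR summits in promoter windows the share was 24.8%, and across the 8569 promoter summits of the pooled list outside the IDR set it was 12.4%. The member summits therefore held the repeat about as often as IDR promoter summits in general. Beside the 4 genes printed with it, rab-1 and vps-25 had it, with overlapping matches counted singly giving 8 at vps-25, 4 at rab-14 and 3 at vps-60. The Hox hexamer TTTATG was at 1 of 24 summits, that of rab-11.1, with an exact interval of 0.105 to 21.1%. Its share was 7.99% at all IDR promoter summits and 8.66% at the promoter summits of the pooled list outside the IDR set. CAGCTG, an E-box, was at 2 of 24, rab-7 and sec-24.1 (exact interval 1.03 to 27%), against 5.33% and 2.5% in these sets. The median GC content of these stretches was 49.5% at the member summits, against 46.5% at all IDR promoter summits and 38.6% at the weaker promoter summits. A motif match describes these letters and was not tested as a binding site.

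At the level of whole lists, the share of members with a promoter summit was above that of all genes in each deposited list. Among the 2570 highest-scoring peaks of replicate 1, the number the IDR list holds, 21 members (27.6%) had a promoter summit against 7.81% of all genes. For replicate 2 the count was 29 (38.2%) against 9.05%. Before the IDR threshold, 57 members (75%, exact interval 63.7 to 84.2) had a summit in the pooled list, against 40.1% of all genes. The pooled list itself ends at 28619 peaks, with a lowest score of 6.461, and each replicate list ends at 30000 peaks. The full list of replicate 1 gave 53 members against 40.5% of all genes, and that of replicate 2 gave 59 against 41.4%. The pooled and replicate lists are labelled as peaks and background, so a summit there is not taken as binding. Of the genes with a pooled promoter summit, 24 of 57 members (42.1%, exact interval 29.1 to 55.9) reached the IDR list, against 1781 of 8013 genes in all (22.2%).

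**Figure D1:**
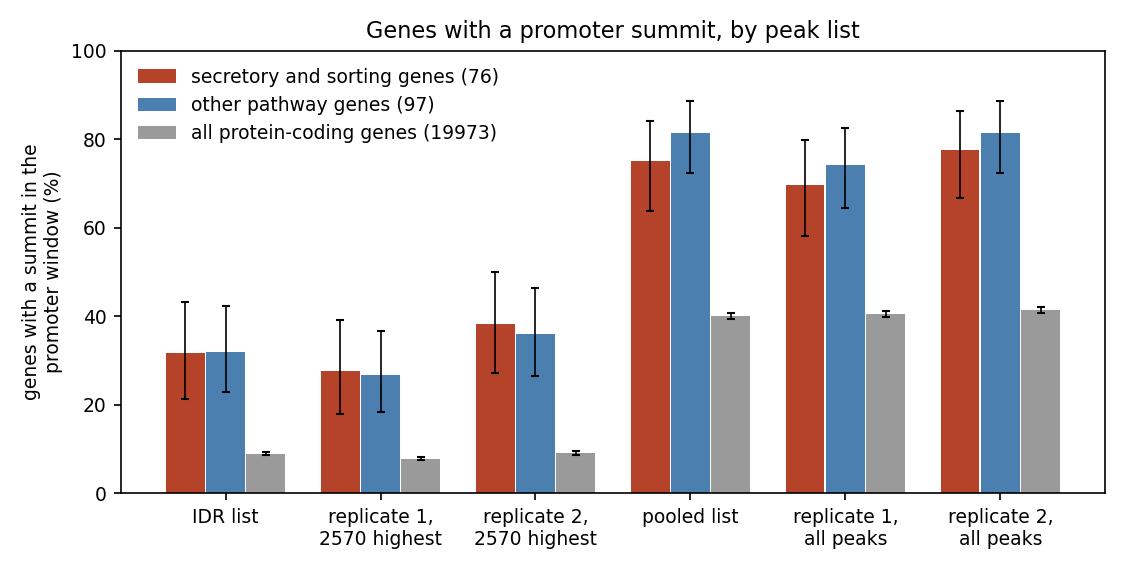
Percent of genes with a summit in the promoter window (y axis) in the IDR list, in the 2570 highest peaks of each replicate, and in the full pooled and replicate lists (x axis). Red bars are the 76 secretory and sorting genes, blue bars 97 other genes of the pathway and grey bars all protein-coding genes, with exact 95% binomial intervals. In the IDR list the red bar stands at 31.6% and the grey bar at 8.92%.

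Peak lists give no read counts, so the depth behind a peak is unknown, and intervals on shares cover counting error only. Genes with several annotated starts have more promoter windows. Of the 51 members with 1 start, 18 (35.3%, exact interval 22.4 to 49.9) had an IDR summit, against 7.18% of all genes with 1 start. Of the 25 with several starts, 6 (24%, exact interval 9.36 to 45.1) did, against 13.8%, which that interval includes. Among all genes with a symbol of 3 or 4 letters, as opposed to a sequence name, the share was 11.5% (1249 of 10896 genes, a background added after seeing the data). The ce11 list of replicate 1 differed in score at equal rank by a median of 0.218% from the ce10 list of replicate 2, and by 39.3% from that of replicate 1. Replicate numbers here follow the ce11 lists, and which sample each belongs to could not be worked out.

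At the ER membrane, sec-61.G and sec-61.B, which encode the small subunits of the Sec61 channel, had IDR summits. The sec-61.G peak (chromosome V, 10897184 to 10897547) scored 89.8 and ranked 89 of 2570, with 44.2 in replicate 1 (rank 57 of 30000) and 43.2 in replicate 2 (rank 228). It was the highest of all member peaks in the IDR list and in replicate 1. Its summit lay 223 bp upstream of sec-61.G, a gene of the minus strand at 10896658 to 10897143 (WBGene00001303), and also in the window of F32D8.13. The sec-61.B summit (score 40.7, rank 1305) lay 458 bp upstream, nearer to the divergent trap-3, which encodes a subunit of the translocon-associated TRAP complex. The channel-forming subunit gene sec-61.A had a pooled peak of 29.8 at rank 2740, below the lowest IDR score of 30.8. The signal peptidase gene sec-11 had no promoter summit in any of the 4 lists.

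All 7 COPII genes had a pooled promoter summit, against 40.1% of all protein-coding genes. In the IDR list 3 of the 7 had one (42.9%, exact interval 9.90 to 81.6), against 8.92% of all genes. The peak of sec-16A.2, which encodes a scaffold of ER exit sites, scored 77.8 (chromosome X, 8286722 to 8287085), with 23.8 in replicate 1 and 52.6 in replicate 2, where it ranked 97. The other gene of that pair, sec-16A.1, had a pooled score of 8.40 at rank 20014 and no promoter summit in replicate 1. The cargo adaptor gene sec-24.1 scored 43.8 (17.0 in replicate 1 and 23.9 in replicate 2), whereas sec-24.2 had 22.1 in the pooled list. The gene sec-12, known in yeast to encode the exchange factor that starts coat assembly, scored 30.8 at rank 2560, near the end of the list. It was the only member with an IDR peak that was outside the 2570 highest in both replicates. The outer and inner coat genes sec-31 and sec-23 had pooled scores of 27.7 and 10.7. Both SNARE genes lacked an IDR summit, with pooled scores of 29.04 for sec-22 and 7.20 for sec-20.

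Of the 6 exocyst genes, 3 had an IDR summit (50%, exact interval 11.8 to 88.2), against 8.92% of all protein-coding genes. In the pooled list the same 3 had a summit, beside 40.1% of all genes, which that interval includes. IDR summits stood at sec-3 (60.04), sec-15 (53.7) and sec-5 (38.3), and none of sec-6, sec-8 and sec-10 had a promoter summit in the pooled list. The sec-3 peak had 23.7 in replicate 1 and 35.6 in replicate 2, and its summit lay 133 bp upstream in no other window. The sec-15 summit lay 275 bp upstream of sec-15 and 26 bp upstream of the divergent gene C28G1.2. The sec-5 summit lay 151 bp upstream of sec-5, inside the divergent gene pir-1, in an exon of its non-coding transcript and 35 bp upstream of its protein-coding start. The sec-5 peak was low in replicate 1, at 8.46 (rank 5298), and higher in replicate 2, at 30.04 (rank 881). In sec-8 a replicate 2 peak of 5.43 was the only promoter summit, and sec-6 and sec-10 had none in any list. The IDR count depends on the window, since an IDR summit lay 1138 bp from a start of sec-6, outside the window of 1000 bp.

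Of the 19 Rab genes, 6 had an IDR summit (31.6%, exact interval 12.58 to 56.55), against 8.92% of all protein-coding genes. In order of score the 6 were rab-18 (55.7), rab-11.1 (50.4), rab-7 (48.8), rab-5 (47.2), rab-14 (40.1) and rab-1 (35.4). RAB-5 marks early endosomes, RAB-7 late endosomes, RAB-11.1 recycling endosomes, and RAB-1 acts between the ER and the Golgi. Replicate 1 gave these peaks scores from 18.2 at rab-1 to 25.7 at rab-11.1, and replicate 2 gave 16.4 at rab-1 to 30.8 at rab-18. For rab-1 the rank was 1214 in replicate 1 but 3629 in replicate 2.

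At 5 of the 6 Rab genes the summit also lay in the window of another gene. The summit at rab-18 lay 9 bp inside its start, in an exon, and in the windows of kbp-4 and par-2. Those at rab-7 and rab-5 lay 761 and 794 bp upstream, and that of rab-11.1, 609 bp upstream, was nearer to rpl-7, a ribosomal protein gene. The rab-14 summit, at 275 bp upstream, was in no other window. A further 7 Rab genes had pooled summits outside the IDR list. Highest of these was rab-39, at 30.8 and rank 2573, just outside the 2570 kept. The score of rab-39 was 5.02 in replicate 1 and 24.14 in replicate 2. Next were rab-30 (28.5), rab-19 (27.99) and rab-8 (25.3). In the closely related pairs, rab-11.2 had no promoter summit in any list beside rab-11.1, and rab-6.1 had none beside a pooled score of 22.2 at rab-6.2. The genes rab-28 and rab-35 had none in any list either. The nearest IDR summit lay 1404 bp from the start of rab-6.1, outside the window, and 71124 bp from that of rab-6.2.

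On the endosomal route 6 of the 11 ESCRT genes had an IDR summit, against 8.92% of all protein-coding genes. The share was 54.5% (exact interval 23.4 to 83.3), and that interval includes the 31.6% of all members. All 11 had a pooled summit (exact interval 71.5 to 100%), against 40.1% of all genes. The ESCRT-III gene vps-32.1 scored 72.8 (chromosome II, 6588895 to 6589258), with 35.2 in replicate 1 and 34.9 in replicate 2. Its summit lay 631 bp upstream and nearer to the divergent gene icd-1. The related vps-60 scored 66.4 (chromosome V, 8606355 to 8606718), and the replicates differed in rank, with 17.7 (rank 1290) in replicate 1 and 56.2 (rank 75) in replicate 2. That is the highest replicate 2 score of any member peak. The others were the ESCRT-II genes vps-25 (44.7) and vps-22 (32.5), the AAA ATPase gene vps-4 (36.8), which acts in taking the polymer apart, and the ESCRT-I gene vps-28 (32.19).

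The vps-25 summit lay inside the gene, in an intron, 87 bp upstream of an internal start. That of vps-22 was 613 bp upstream and lay 62 bp from the start of C27F2.9. The ESCRT genes below the IDR list ran from vps-37 (27.6) and vps-24 (25.99) through vps-2 (18.5) and vps-20 (10.3) to vps-36 (9.42).

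The tethering complexes differed in their counts, but each has few genes and the difference was not tested. Of the 5 genes of GARP and EARP, which tether vesicles at the trans-Golgi network and at recycling endosomes, 3 had an IDR summit. They were vps-52 (39.1) and vps-51 (36), subunits of both complexes, and vps-50 (32.7), of EARP alone. The share was 60% (exact interval 14.7 to 94.7), against 8.92% of all protein-coding genes. The vps-52 peak had 16.5 in replicate 1 and 24.4 in replicate 2. The peaks of vps-51 and vps-50 were low in replicate 1, at 7.44 (rank 6395) and 8.15 (rank 5616), against 27.88 and 24.22 in replicate 2. The vps-51 summit was nearer to lin-35, the Rb-like gene, and the vps-50 summit was shared with cey-4, a cold-shock domain protein gene. In the pooled list vps-54, of GARP, scored 11.9, and vps-53 had no promoter summit.

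None of the 8 HOPS and CORVET genes had an IDR summit in the window, nor one among the 2570 highest peaks of either replicate. By the exact interval this count of 0 allows a share of up to 36.9%. That range includes the 31.6% of all members and the 8.92% of all protein-coding genes. In the pooled list 3 of the 8 had a summit, vps-33.2 (27.99), vps-33.1 (19.5) and vps-39 (11.8), a share of 37.5% beside 40.1% of all genes. The genes vps-8 and vps-11 had none in any list. At vps-16 an IDR summit lay 1268 bp from the start, outside the window. Of the 3 retromer genes, vps-35 (25.5) and vps-26 (23.7) had pooled summits below the IDR list and vps-29 had none. Both were among the 2570 highest peaks of replicate 2, at ranks 2525 and 2378, and at ranks 5708 and 9219 in replicate 1.

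Among the sorting nexins, 1 of 7 had an IDR summit (14.3%, exact interval 0.361 to 57.9, which includes the 8.92% of all protein-coding genes). It was snx-1, which encodes a retromer-associated nexin, with a score of 40.3, 14.2 in replicate 1 and 25.8 in replicate 2. Its summit lay 299 bp upstream on chromosome X in no other window. The other nexin genes had pooled scores from 6.498 at snx-6 to 18.1 at snx-3, and snx-14 had no promoter summit in any list. Genes of the class III phosphoinositide 3-kinase, vps-34 and vps-15, the SM protein gene vps-45 and the lipid transfer gene vps-13 had no IDR summit either. Their pooled scores were 8.14 for vps-15, 13.2 for vps-45 and 19.3 for vps-13.

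**Figure D2:**
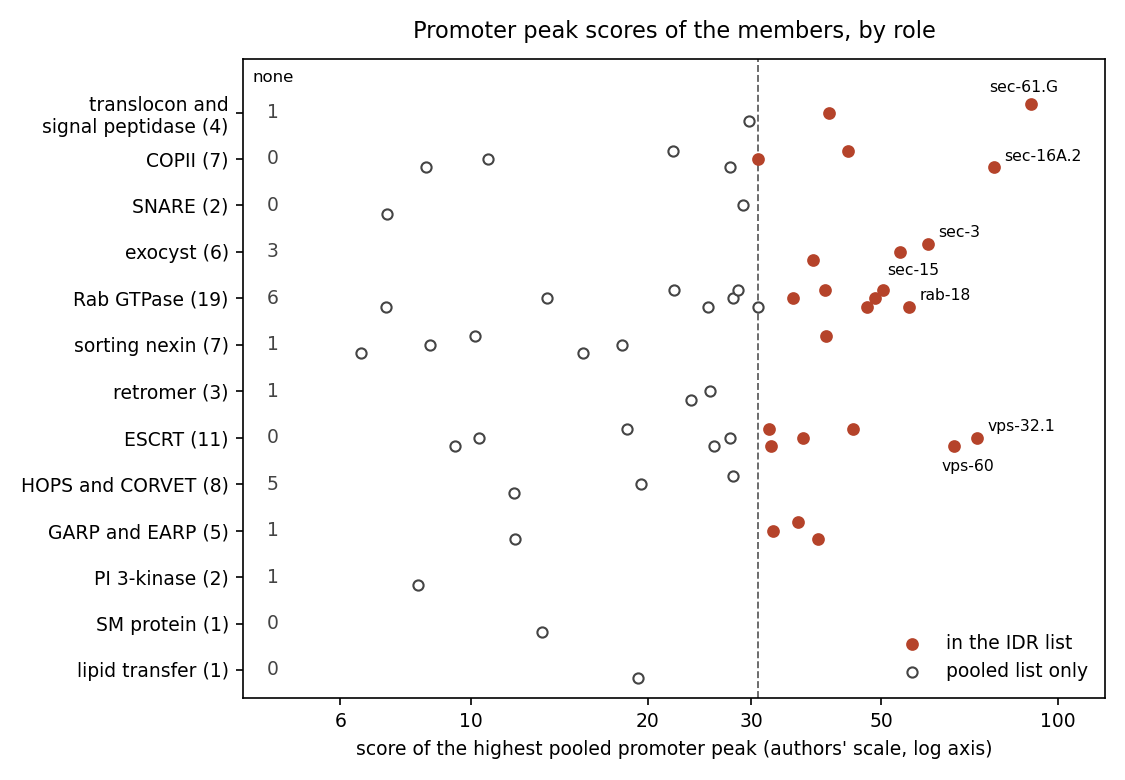
Score of the highest pooled promoter peak (x axis, authors' scale, log axis) for each member, by role (y axis, number of members in brackets), with the count of members lacking a pooled promoter summit at the left. Filled red points are in the IDR list, open points are not, and the dashed line is the lowest IDR score, 30.8; vertical offsets within a row only separate points. The HOPS and CORVET row has 5 of 8 genes without a summit, and the ESCRT row has none.

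All 24 member peaks overlapped a peak of each replicate list, as did 1377 of the 1389 IDR promoter summits in all, so this count says little about the members. Summits of 23 in replicate 1 and 24 in replicate 2 lay within 100 bp, with median shifts of 10 and 7 bp. Both replicates had 17 of the 24 (70.8%) among their 2570 highest peaks, against 768 of 1389 IDR promoter summits in all (55.3%). A further 4, at sec-5, vps-51, vps-50 and vps-22, were there in replicate 2 alone, and 2, at rab-1 and vps-28, in replicate 1 alone. Scores ran from 7.44 to 44.2 with a median of 18.2 in replicate 1, and from 16.4 to 56.2 with a median of 25.6 in replicate 2. For all IDR promoter summits in both lists these medians were 16.7 and 27.0. Spearman's rho between the replicate scores was 0.51 over the 24 peaks and 0.228 over 1377 IDR promoter peaks. This is a description over peaks of the same 2 libraries whose pooled score was cut at the IDR limit.

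**Figure D3:**
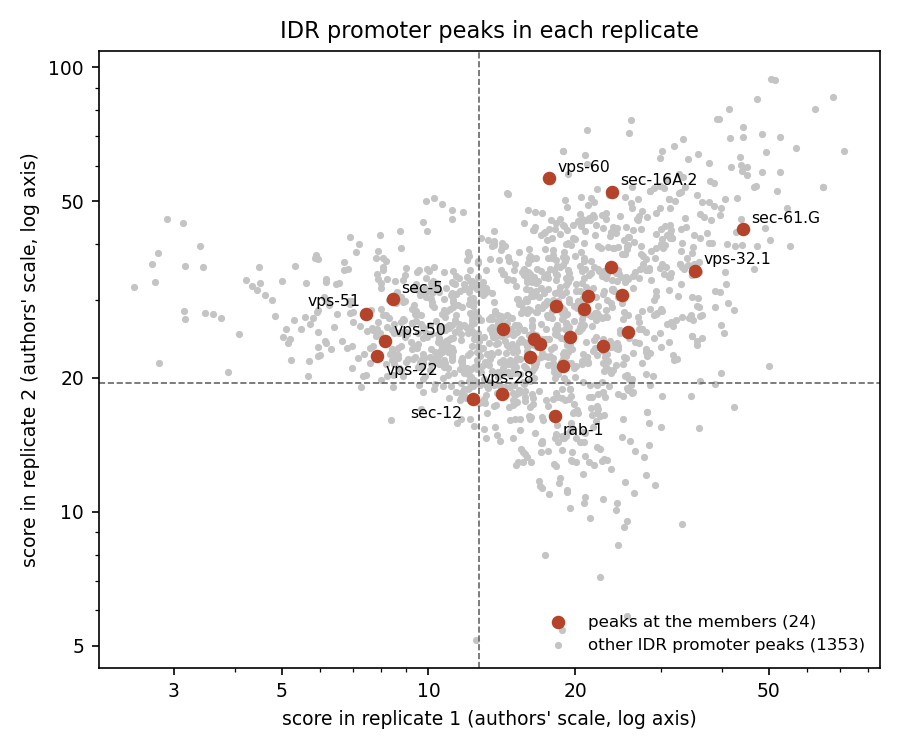
Score in replicate 1 (x axis) against score in replicate 2 (y axis) for IDR promoter peaks, both on the authors' scale with log axes; red points are the 24 member peaks and grey points the others. Dashed lines mark the lowest score among the 2570 highest peaks of each replicate, 12.7 and 19.5. The points of sec-5, vps-51, vps-50 and vps-22 lie left of the vertical line and above the horizontal one.

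The scores of member peaks lay in the range of promoter peaks in general. The median over the 24 members was 42.3 (quartiles 36.6 and 54.2, range 30.8 to 89.8), against 43.7 for the highest promoter peak of the 1781 genes with an IDR summit. A second IDR summit in the windows was rare, at 62 of the 1781 genes. None of the 24 had one, and a count this near to the background says little about the members. In the pooled list as a whole, where the members' median is 27.99 over 57 genes, that of all 8013 genes with a promoter summit was 15.8.

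Summits lay upstream of the start at 23 of the 24 members. The median position was -275 bp from the start (quartiles at -471 and -140 bp), against -248 bp over all genes with an IDR summit (quartiles at -455 and -128 bp). By annotation, 21 of the summits lay outside protein-coding genes, 1 lay in an intron, of vps-25, and 2 in exons, of rab-18 and pir-1. Those at vps-32.1, rab-11.1, sec-24.1 and sec-61.B lay in annotated non-coding RNA genes. At 13 members (54.2%) the summit also fell in the window of another gene, against 50.03% of all genes with an IDR summit. At 15 members (62.5%) the nearest annotated start was that of the member, against 74.4%. Those 15 give 19.7% of the 76 genes, against 6.66% of all genes when each summit goes to its nearest start alone. Worm starts are often trans-splice sites, so a distance to an annotated start is not a distance to the initiation site.

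**Figure D4:**
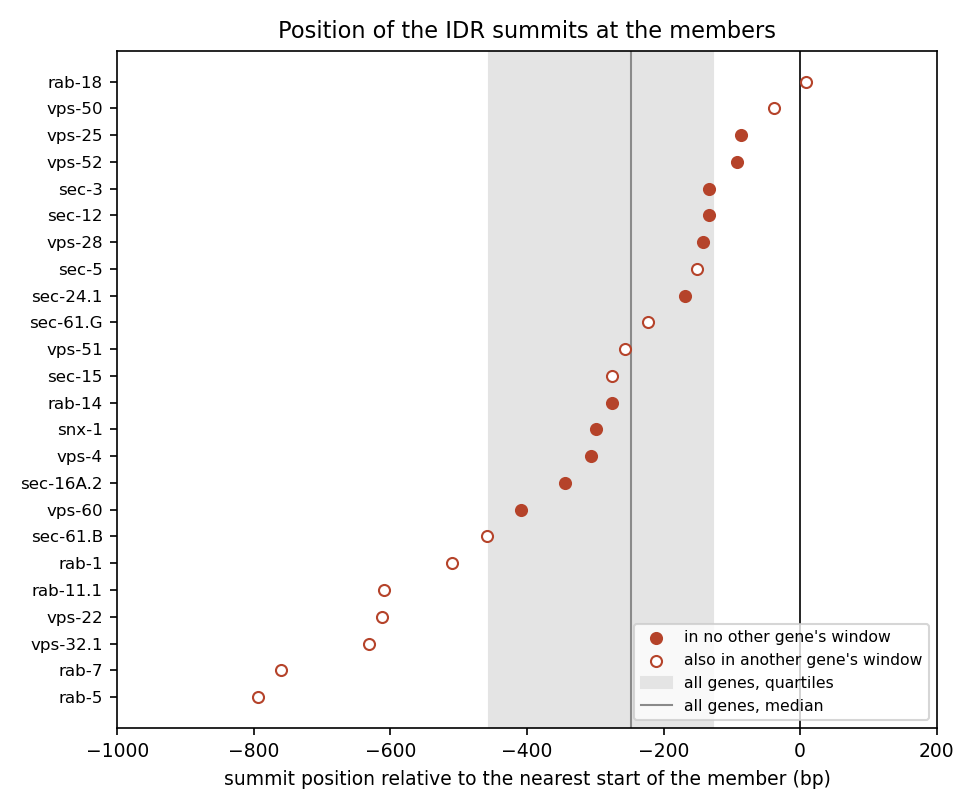
Position of the IDR summit relative to the nearest start of each of the 24 members (x axis, bp, with upstream negative). Filled points lie in no other gene's promoter window, open points lie in at least 1 other, and the grey band and line give the quartiles and median over all genes with an IDR summit. The 5 summits farthest upstream, beyond -600 bp, are all in another gene's window.

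By chromosome, the members with an IDR summit were 7 of 17 on I, 3 of 14 on II, 3 of 13 on III, 2 of 11 on IV, 3 of 9 on V and 6 of 12 on X. The share on X was 50% (exact interval 21.1 to 78.9) against 9.996% of all genes there, and on V it was 33.3% (7.49 to 70.1) against 5.05%. On each chromosome the members' share was above that of its genes, and on II, III and IV the interval of the members included that value. Of the 52 members without an IDR summit in the window, 9 had one farther off but within 2000 bp of a start. They were rab-6.1, rab-10, rab-19, sec-6, sec-11, snx-6, vps-13, vps-16 and vps-36. With a window of 2000 bp upstream, 33 members (43.4%) had an IDR summit, against 11.7% of all genes. For all genes without an IDR summit in the 1000 bp window, the share with one within 2000 bp was not computed. No member had an IDR summit in its gene body without one in the window.

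The share among other genes of the pathway lay close to that of the members. Of 97 genes matched from a list of 106 symbols for coats, adaptors, tethers, SNAREs and Rab regulators, 31 (32.0%, exact interval 22.9 to 42.2) had an IDR summit. The highest scores were those of trap-2 (67.9), a TRAP subunit gene, and the clathrin adaptor genes apb-1 (64.4), aps-1 (60.1) and aps-3 (57.5). The NSF ATPase gene nsf-1 had 57.3, cogc-2 of the COG Golgi tether had 55.5, and lgg-1, an autophagy gene, had 55.1 with 3 IDR summits in its windows. Summits at trap-2, apb-1, aps-1, aps-3, nsf-1 and cogc-2 also lay in another gene's window, and those of lgg-1 did not. Further down, some were shared in this way and others were not. Next in order were trpp-9 (52.97), the exocyst gene exoc-7, copa-1 of the COPI coat, rme-1, memb-1, ccz-1, copz-1, eea-1 and aps-2 (44.2). Below these were the ESCRT-I gene mvb-12 (43.6), unc-108, which encodes a Rab2 (42.5), spcs-2, trap-3 (the summit shared with sec-61.B), cogc-3, tbc-1, tmed-1, the COPII GTPase gene sar-1 (38.1), clic-1, copb-2, alx-1, syx-5, spe-39, lst-4 and tmed-10 (31.2). The remaining 9 symbols were not matched and are not used here.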

How the data were processed

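Peak lists from 2 replicates of 1 group were used. Per the labels, library fragments were 150 to 350 bp. The authors deposited peak lists per replicate, pooled, and IDR-thresholded, with a score per peak and a −log10 q-value; the q-values were not used. The deposited notes name the lists' type and build (ce11 and ce10); for the aligner, peak caller and IDR limit, names and values are not given here in any source used. Per the deposited notes, an input that was also used for control-normalized signal entered the lists. The ce11 lists were used, and ce10 replicate lists served to compare scores by rank. The IDR list held the 2570 highest of 28619 pooled peaks, 2570 of 2570 matching in position. Read depth is unknown. Ensembl release 115 on WBcel235 gave 29314 protein-coding starts; chromosome names and lengths fitted the lists. Summits were assigned to promoter windows with Python 3.11.15, pandas 2.3.3, numpy 2.4.6 and scipy 1.17.1, tested on simulated summits. A replicate's value is its highest peak overlapping the IDR peak by 1 bp or more. Shares carry exact (Clopper-Pearson) 95% intervals. Members and lists were chosen with earlier results of these data known. Named genes are all members with an IDR promoter summit, the 10 next by pooled score, members in no list, and pathway genes with an IDR summit; other members named were chosen after their values were seen. Alternatives varied the window, starts, overlap, list and replicate.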

Additional observations from a re-analysis of the deposited data

How the results depend on the processing

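The 24 members with an IDR promoter summit became 15 when each summit went to its nearest start, 11 when summits in another gene's window were left out, and 12 with the 1285 highest-scoring IDR peaks. With those 1285 peaks the share of all genes was 5.15%, the other pathway genes numbered 19, and the median member score was 54.7, which follows from keeping the higher scores. With support required among the 2570 highest peaks of each replicate, all genes stood at 5.14% and pathway genes at 20, and 17 members had a summit. The count ran from 18 with a 500 bp window to 33 with a 2000 bp window, and was 29 without replicate 1 and 21 without replicate 2. Across the 9 alternatives of window, starts, overlap and list the members' share was 2.96 to 4.35 times that of all genes, against 3.54 as reported. The count of 11, without summits in another gene's window, is not among these 9. For that setting the share of all genes was not computed. The members with a summit under all 9 were sec-61.G, sec-16A.2, vps-60, sec-3, rab-18 and sec-24.1. Counts in the pooled list, the median distance, the GAGAGA share and the replicate medians kept their values within 1.5 times or within their intervals. The median score was not computed with a replicate left out, since each list has its own scale. No paired analysis was possible because there is 1 group. Depth is unknown, so a member without a summit is not shown to be unbound.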

Other observations

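The start of the neighbouring gene was nearer than that of the member at 9 of the 24 IDR summits. The neighbours were icd-1 at vps-32.1, C28G1.2 at sec-15, rpl-7 at rab-11.1, W03C9.5 at rab-7, trap-3 at sec-61.B, pir-1 at sec-5, lin-35 at vps-51, C39F7.5 at rab-1 and C27F2.9 at vps-22. The summits lay between -422 bp (icd-1) and -26 bp (C28G1.2) from these starts.

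The nearest protein-coding gene upstream, leaving out overlapping genes, lay on the opposite strand at 18 of the 24 members with an IDR summit (75%), and at 25 of the 52 members without one (48.1%). Over all genes the shares were 67.4% with an IDR summit and 43.3% without. A same-strand gene ending within 1000 bp stood at the other 6 members with an IDR summit (25%) and at 20 of the 52 without (38.5%). Over all genes these shares were 17.1% with an IDR summit and 29.6% without. No test of these differences was made. The gap was 277 bp at sec-12, downstream of K02B12.2, and 678 bp at snx-1, downstream of lmp-2. The annotation used here does not list operons.

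Of the 52 members outside the IDR list, 8 (15.4%) had a promoter summit among the 2570 highest peaks of replicate 2 alone, against 1.495% of all genes outside the list. In replicate 1 alone there were 2 (3.85%), against 1.64%. They were rab-8, at rank 2410 in replicate 1 and 4302 in replicate 2, and sec-31, at rank 2493 in replicate 1 and 5516 in replicate 2. For rab-19 the scores were 27.4 (rank 1140) in replicate 2 and 6.91 (rank 7164) in replicate 1. For snx-3 replicate 2 gave 20.01 (rank 2440) and replicate 1 had no promoter summit.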
